A study of Mus musculus with 9 samples.

Results

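The response of C2C12 myotubes to dexamethasone was described across all genes of the deposited table, with an emphasis on transcription factors, secreted proteins, receptors, transporters and channels, and signalling regulators. C2C12 is a mouse myoblast line whose cells fuse into contractile myotubes. The comparison used 6 of the 9 libraries of the series, 3 from myotubes given vehicle and 3 from myotubes given 50 µM dexamethasone, a synthetic glucocorticoid, for 24 h. The other 3 libraries came from myotubes given 50 µM dexamethasone and 10 µM THSG for 24 h, and their values are given beside some results. All groups share the cell line and the myotube stage, no genotype differs between them, and the labels do not say whether the replicates were separate cultures, so p-values measure only the spread between these libraries. The table holds 10716 genes, each above 1 FPKM (a fragment count adjusted for transcript length and library size) in every library, and all of them entered the test. A gene that was silent in either group could therefore not appear, and listed genes outside the table are not analysed here.

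Glucocorticoids act through the glucocorticoid receptor, Nr3c1, a nuclear receptor that chaperones hold in the cytoplasm until hormone binds. The receptor then enters the nucleus, where it binds inverted repeats of a short sequence and activates nearby genes, and where it also lowers genes driven by AP-1 and NF-kB. In skeletal muscle glucocorticoids shift fuel use, restrain growth signalling and promote protein loss, and dexamethasone on myotubes is a common model of muscle wasting.

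Libraries of the same group were alike, with Pearson correlations across genes of 0.991 to 0.994. Mitochondrially encoded genes took 10.5 to 12% of the summed FPKM in the vehicle libraries and 11.8, 11.5 and 14% in dexamethasone replicates 1, 2 and 3, so that dexamethasone replicate 3 was the highest. The myotube label was checked against 18 myotube markers, all of them in the table. Their summed level was 14541 to 16270 FPKM with vehicle and 15918 to 17089 FPKM with dexamethasone. By the threshold given below, 11 of them were called higher and 1 lower, against 12.7% and 20.9% of all genes. For the marker lists that follow, rose and fell are such calls and stand beside the same shares. Of 14 fibroblast and mesenchymal markers 9 were in the table, with a sum of 4196 to 4966 FPKM against 3262 to 3459 FPKM, and 7 of them fell while 2 rose. Of 15 undifferentiated myoblast and satellite cell markers 12 were in the table, and 7 of them fell while 3 rose. Their sum was 1005 to 1087 FPKM with vehicle and 982 to 1013 FPKM with dexamethasone. Of 29 cell cycle genes 20 were in the table, with a sum of 213 to 226 FPKM against 142 to 152 FPKM, and 17 of them fell while 1 rose. Of 16 endothelial, leukocyte and smooth muscle markers 2 were in the table, both of smooth muscle (Acta2 and Tagln), and of 12 adipocyte markers 4 were. The adipocyte sum was 31.5 to 33.6 FPKM with vehicle and 54.9 to 59.4 FPKM with dexamethasone, and 2 members rose while 0 fell. Of 14 osteoblast and chondrocyte markers 2 were in the table, and both fell. In bulk RNA fewer cells of a type and less RNA per cell cannot be told apart, and the part of these shifts in the results below was not tested.

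At an adjusted p under 0.05, 3601 of the 10716 genes (33.6%) differed between dexamethasone and vehicle. Of these, 1362 were higher (12.7% of the table) and 2239 lower (20.9%), so that 37.8% of the called genes were higher. This split depended on the scaling, since the called genes were 49.6% higher after median-ratio scaling (1739 higher, 1766 lower) and 50.5% higher after quantile normalization (1784 higher, 1751 lower). Changes of at least 2-fold were rarer, at 310 genes (2.89%), of which 131 were higher (1.22%) and 179 lower (1.67%). The median log2 difference over all genes was -0.05, and the libraries of one group all lay on one side of the other group's in 45.9% of genes. Many genes named below were selected partly for such groups, so a lack of overlap is no added support for them. Without dexamethasone replicate 3, 1178 genes were higher and 1894 lower.

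Across 5 classes of regulators the share called ran from 40.6 to 69.3%, against 33.6% of all genes. The lists behind these classes were chosen with earlier results of these data known, so the shares describe the lists only. The counts of single lists below stand beside 12.7% higher and 20.9% lower over all genes. Secreted proteins were called in 151 of 218 cases (69.3%), with 47 higher and 104 lower, and 46 of them changed at least 2-fold (21.1%). Receptors were called in 107 of 178 cases (60.1%), with 39 higher and 68 lower, and 19 changed at least 2-fold (10.7%). Signalling regulators were called in 54 of 107 cases (50.5%), with 29 higher and 25 lower, and 14 changed at least 2-fold (13.1%). Transcription factors were called in 146 of 327 cases (44.6%), with 62 higher and 84 lower, and 15 changed at least 2-fold (4.59%). Transporters and channels were called in 138 of 340 cases (40.6%), with 61 higher and 77 lower, and 17 changed at least 2-fold (5%). The classes had median levels of 9.89 to 12.7 FPKM, near the 12.4 FPKM of all genes. Together they hold 10.9% of the table and 35.8% of the genes changed at least 2-fold. After median-ratio scaling the higher members made up 34.7% of the called secreted proteins and 41.4% of the called receptors, so both remained mostly lower, while transporters and channels had 75 higher and 66 lower members and transcription factors 71 and 70. After quantile normalization the latter classes had 79 higher and 64 lower, and 74 higher and 68 lower members.

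**Figure D1:**
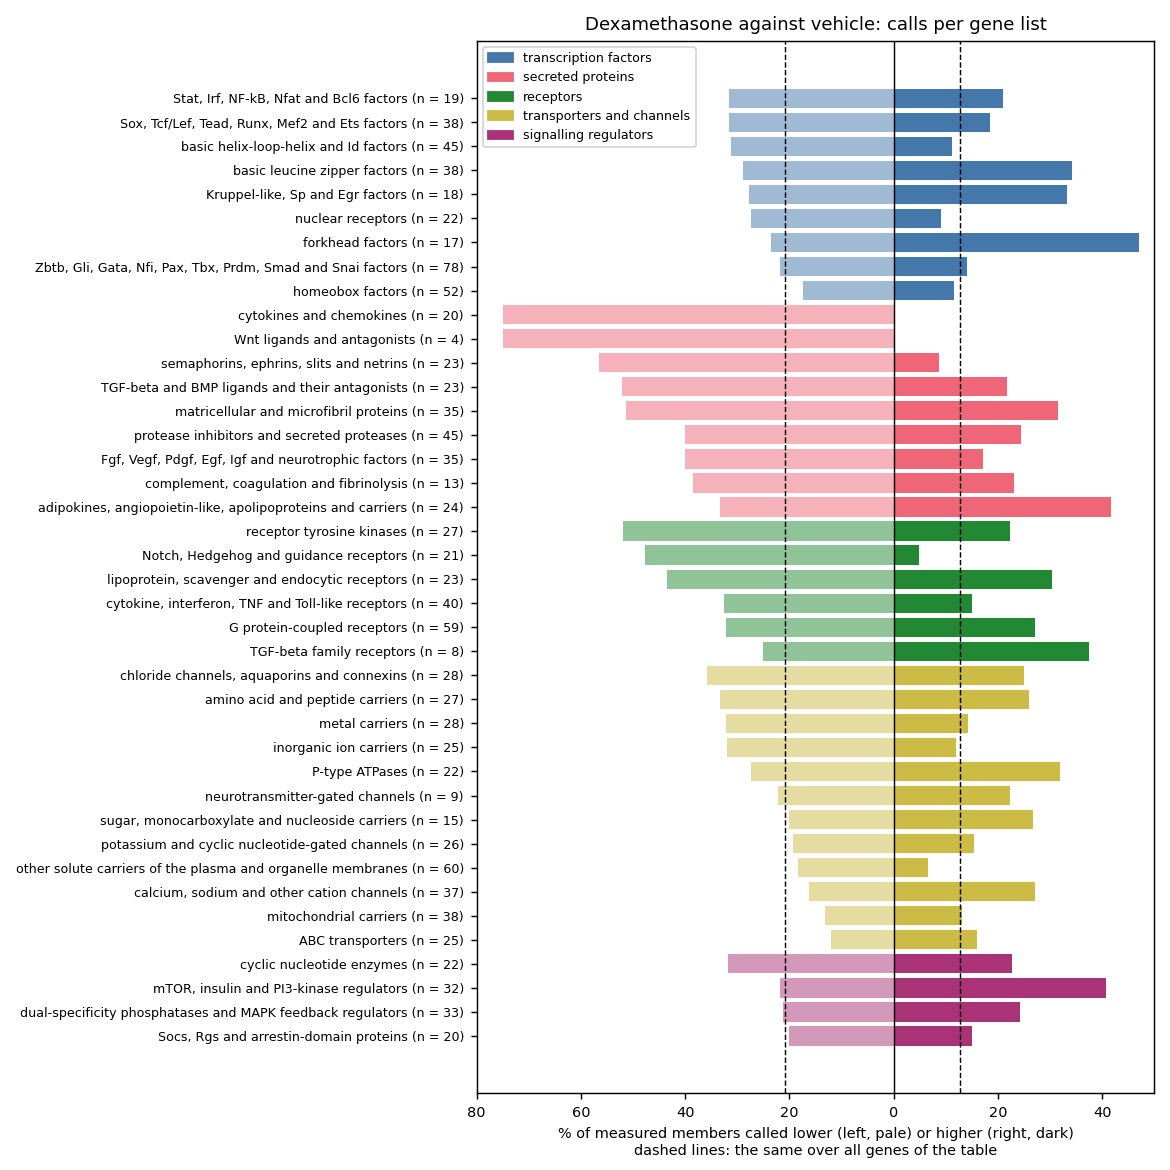
Percent of the measured members of each gene list that were called lower (pale bars, left) or higher (dark bars, right) with dexamethasone, coloured by class, with the number measured in parentheses and dashed lines at the shares of all genes (20.9% lower, 12.7% higher). Cytokines and chemokines had 15 of 20 members lower and 0 higher (Il1rn, a secreted antagonist that rose, is counted with receptors), and forkhead factors had 8 of 17 higher.

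The classic glucocorticoid targets, genes that rise with glucocorticoids in many tissues, were checked first. Of 48 listed genes 34 were in the table. Of these 34, 25 rose, 2 fell and 7 were not called, with a median log2 difference of 0.82. The share higher was 73.5%, against 12.7% of all genes. Fkbp5, a co-chaperone that lowers the hormone affinity of the receptor, lay at 6.76, 6.34 and 6.61 FPKM with vehicle and at 97.6, 98.2 and 97.5 FPKM with dexamethasone. Glul, the enzyme that makes glutamine, lay at 53.2, 53.6 and 56.0 FPKM with vehicle and at 221, 216 and 211 FPKM with dexamethasone, a log2 difference of 1.99 (SE 0.04, adjusted p = 1.22e-11). In both genes every dexamethasone library stood above every vehicle library by more than the spread within a group. The members that fell were Il1r1, the signalling receptor of interleukin-1 (-0.79 on the log2 scale), and Tgm2, a transglutaminase (-0.62).

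The receptor's own machinery moved less than the classic targets. Of 21 genes of the receptor, its chaperones and cofactors and glucocorticoid metabolism, 6 rose and 4 fell. Nr3c1 itself lay at 14.3, 16.3 and 14.6 FPKM with vehicle and at 10.8, 12.3 and 11.4 FPKM with dexamethasone, a log2 difference of -0.39 (SE 0.09, adjusted p = 0.00629). H6pd, which supplies NADPH in the endoplasmic reticulum to the enzyme that regenerates active glucocorticoid, lay at 13.3, 12.2 and 14.5 FPKM with vehicle and at 30.6, 29.9 and 29.0 FPKM with dexamethasone (1.16 on the log2 scale). For neither gene did any library of 1 group reach into the other group. Abcb1b, an efflux pump that carries glucocorticoids among its substrates, rose by 0.99 on the log2 scale, and Fkbp4, the co-chaperone that carries the receptor toward the nucleus, fell by 0.34 on the log2 scale. Hsd11b1 and Nr3c2 are not analysed here.

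Promoter windows from RefSeq (build GRCm38.p6, from 250 bases before to 50 after a gene's start) were searched for the palindromic glucocorticoid response element, an inverted repeat of a short arm with a spacer of 3 free bases and 1 free base in each arm. Windows were found for 8444 genes of the table, with 10832 windows in all, and 34 of them (0.314%) held the pattern on either strand. Among the classic glucocorticoid targets 3 of 45 windows held it (6.67%), those of Map3k6, Mt1 and Sgk1. Among genes called and at least 2-fold higher, 3 of 139 windows held it (2.16%), and among those at least 2-fold lower, 0 of 164. The 2-fold sets were not part of the planned search. The single arm AGAACA, which can overlap the full pattern but not lie within it, was in 11.9% of all windows, 18% of the windows of the genes at least 2-fold higher and 7.93% of those at least 2-fold lower. The AP-1 pattern TGANTCA was in 4.81%, 7.91% and 7.93% of these windows. Of the 12 genes with the largest rises, all had a window and none of their 22 windows held the full pattern. Of the 12 with the largest falls 10 had a window, and 0 of their 12 windows held it. The metal response core TGCNCNC was in 60.5% of all windows, 54.5% of those of the largest rises and 91.7% of those of the largest falls. A match is a description of these letters, and most regulatory elements lie outside such short windows.

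The 3 genes at least 2-fold higher with the pattern were Sgk1, a kinase that acts on ion transport, Mt1, a metallothionein that binds zinc and copper, and Tinagl1, a secreted matricellular protein. Their upstream 250 bases are shown, 5′ to 3′ on the strand of the gene and up to the base before the start, with the pattern in capitals. The Mt1 stretch is chr8:94178839-94179088 on the plus strand, the Sgk1 stretch is chr10:21993640-21993889 on the plus strand and belongs to 1 of 6 Sgk1 windows, and the Tinagl1 stretch is chr4:130174803-130175052 on the minus strand and belongs to 1 of 2 Tinagl1 windows.
Sgk1: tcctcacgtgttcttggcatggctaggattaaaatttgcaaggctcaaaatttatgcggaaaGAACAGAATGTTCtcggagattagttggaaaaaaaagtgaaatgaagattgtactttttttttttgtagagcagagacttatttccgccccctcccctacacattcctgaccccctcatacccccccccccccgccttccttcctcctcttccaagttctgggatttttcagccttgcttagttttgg
Mt1: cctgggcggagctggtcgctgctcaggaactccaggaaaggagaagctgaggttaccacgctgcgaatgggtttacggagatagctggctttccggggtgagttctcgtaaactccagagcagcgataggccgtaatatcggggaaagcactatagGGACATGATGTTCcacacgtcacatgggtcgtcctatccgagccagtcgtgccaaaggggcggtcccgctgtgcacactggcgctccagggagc
Tinagl1: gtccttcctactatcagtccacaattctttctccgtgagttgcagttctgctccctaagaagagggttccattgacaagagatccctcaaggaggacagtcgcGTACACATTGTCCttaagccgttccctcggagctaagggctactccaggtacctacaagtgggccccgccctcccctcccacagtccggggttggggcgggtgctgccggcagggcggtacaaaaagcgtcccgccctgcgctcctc
The pattern began 188 bases upstream of the start in Sgk1, 94 in Mt1 and 147 in Tinagl1. Its letters were GAACAGAATGTTC in Sgk1, GGACATGATGTTC in Mt1 and GTACACATTGTCC in Tinagl1.

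These genes differed in level and in the size of their rise. Sgk1 lay at 15.0, 16.7 and 15.6 FPKM with vehicle and at 101, 101 and 98.5 FPKM with dexamethasone (2.66 on the log2 scale, SE 0.05). Mt1 lay at 205, 190 and 152 FPKM with vehicle and at 1085, 1216 and 1157 FPKM with dexamethasone (2.67, SE 0.09). Tinagl1 lay at 2.30, 2.09 and 1.24 FPKM with vehicle and at 4.26, 3.79 and 4.39 FPKM with dexamethasone (1.14, SE 0.19, adjusted p = 0.000567). In each the lowest dexamethasone library stood above the highest vehicle library. Mt1 and its neighbour Mt2 are close paralogs, so reads may have been split between them.

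Among transcription factors the C/EBP family gave the largest rises. Cebpa, which drives metabolic and adipogenic programmes, lay at 7.57, 5.54 and 5.63 FPKM with vehicle and at 26.9, 27.1 and 25.3 FPKM with dexamethasone (2.08 on the log2 scale, SE 0.10, adjusted p = 2.90e-08). Cebpd, its hormone-responsive relative, lay at 2.28, 2.18 and 1.97 FPKM with vehicle and at 7.75, 7.57 and 6.30 FPKM with dexamethasone (1.70). The groups stood apart in both, whereas Cebpb, often listed beside them as a glucocorticoid target, spread over 10.3 to 19.3 FPKM with vehicle and 9.63 to 14.5 FPKM with dexamethasone and was not called (-0.14, 95% interval -0.63 to 0.35). Of all bZIP factors, these included, 13 of 38 were higher (8 without dexamethasone replicate 2 or without vehicle replicate 3) and 11 were lower. Atf5, a stress-responsive factor, lay at 68.6, 60.0 and 64.4 FPKM with vehicle and at 23.1, 29.1 and 16.9 FPKM with dexamethasone (-1.51). Creb3l1, an endoplasmic reticulum factor that drives collagen secretion, fell by 1.31 on the log2 scale, and Junb, an AP-1 subunit, by 0.74. The clock-linked factors moved in both directions. Per1, a clock repressor that glucocorticoids induce, lay at 7.81, 7.55 and 8.45 FPKM with vehicle and at 23.6, 24.4 and 21.1 FPKM with dexamethasone (1.52), and Nfil3 rose by 0.76 on the log2 scale. Dbp, a clock output activator, lay at 5.35, 4.82 and 4.58 FPKM with vehicle and at 2.31, 3.36 and 2.38 FPKM with dexamethasone (-0.87, adjusted p = 0.00129).

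Krüppel-like factors gave both rises and falls. Of 18 Klf, Sp and Egr genes 6 rose and 5 fell: Klf9 by 1.22 and Klf13 by 0.99 on the log2 scale were the largest rises of this list, and Egr2 (-1.02), Klf10 (-0.70) and Egr3 (-0.67) the largest falls. Klf9, a repressor that glucocorticoids induce in many tissues, lay at 11.5, 11.4 and 11.9 FPKM with vehicle and at 26.3, 27.2 and 27.8 FPKM with dexamethasone. Forkhead factors were called in 12 of 17 cases, 8 higher and 4 lower (2 lower when dexamethasone replicate 1 or 2 or vehicle replicate 2 or 3 was left out, and after quantile normalization). Foxc1, a mesodermal factor, lay at 2.98, 2.696 and 2.23 FPKM with vehicle and at 5.74, 6.02 and 5.77 FPKM with dexamethasone (1.13). Foxo3, which drives atrophy and autophagy genes, lay at 12.9, 12.4 and 13.2 FPKM with vehicle and at 21.96, 21.7 and 21.0 FPKM with dexamethasone (0.74). Its relative Foxo1 was not called (-0.20, adjusted p = 0.108), though it was without the intensity trend (adjusted p = 0.0388). Foxm1, a factor of dividing cells, fell by 0.79 on the log2 scale.

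Of 19 Stat, Irf, NF-kB, Nfat and Bcl6 factors 4 rose, 6 fell and 9 were not called (3 fell without vehicle replicate 1). Irf2, which antagonizes Irf1 at shared sites, lay at 6.15, 7.35 and 8.06 FPKM with vehicle and at 16.2, 17.4 and 17.6 FPKM with dexamethasone (1.25, SE 0.09), and Irf1 fell by 0.77 on the log2 scale. Relb, an NF-kB subunit, was also lower (-0.56). Of 45 basic helix-loop-helix and Id factors 5 rose (11.1%) and 14 fell (31.1%), against 12.7% and 20.9% of all genes. Myf5, an early myogenic factor, lay at 8.32, 7.60 and 7.31 FPKM with vehicle and at 15.0, 15.7 and 17.8 FPKM with dexamethasone (1.05), and Mitf, a lysosome and pigment factor, rose by 0.95 on the log2 scale. Myf5 also belongs to the 12 measured markers of undifferentiated myoblasts and satellite cells, of which 3 rose and 7 fell. Hes1, a Notch target, lay at 29.8, 27.9 and 26.6 FPKM with vehicle and at 12.99, 15.7 and 13.3 FPKM with dexamethasone (-1.001). Id3 rose by 0.81 and Id2 fell by 0.45 on the log2 scale.

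Nuclear receptors were called in 8 of 22 cases (36.4%), near the 33.6% of all genes, with 2 higher (1 when any 1 vehicle or dexamethasone library was left out, 4 without the intensity trend), 6 lower and 0 changed 2-fold. The COUP factors parted, since Nr2f2 rose by 0.90 on the log2 scale and Nr2f1 (-0.87) and Nr2f6 (-0.70) fell. Homeobox factors were called in 15 of 52 cases (28.8%), against 33.6% of all genes, with Zhx3 (0.89) and Six4 (0.84) the largest rises of that list. Snai1, a repressor of epithelial genes, lay at 18.1, 15.5 and 15.2 FPKM with vehicle and at 6.77, 8.24 and 6.85 FPKM with dexamethasone (-1.15). Factors related to E2F split: Tfdp2 rose by 1.07 while E2f2 (-1.44) and E2f8 (-0.98) fell, beside the fall of the cell cycle list given above.

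Secreted proteins held the largest change of the table. Ctla2a, an inhibitor of cathepsin L, lay at 7.59, 6.11 and 5.55 FPKM with vehicle and at 893, 841 and 849 FPKM with dexamethasone, a log2 difference of 7.06 (SE 0.09, adjusted p = 3.59e-13). It has a close paralog, Ctla2b, and how reads were divided between them is not stated. Selenop, the plasma carrier of selenium, lay at 34.0, 30.2 and 33.3 FPKM with vehicle and at 445, 444 and 470 FPKM with dexamethasone (3.80), and Ccdc152, which overlaps it on the opposite strand, rose by 3.94. Without the strand setting of the counting, reads of this overlapping pair cannot be told apart.

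Growth factors were lower more often than higher, with 6 of 35 higher and 14 lower. Vegfd, a lymphatic and vascular growth factor, lay at 2.34, 2.33 and 3.00 FPKM with vehicle and at 22.7, 20.3 and 22.5 FPKM with dexamethasone (3.05, SE 0.11, adjusted p = 1.69e-09). Vegfa, the main angiogenic member, lay at 58.2, 56.1 and 50.2 FPKM with vehicle and at 26.3, 28.8 and 26.7 FPKM with dexamethasone (-1.01, SE 0.07). Pgf, placental growth factor, lay at 11.3, 11.03 and 12.1 FPKM with vehicle and at 4.53, 4.60 and 5.02 FPKM with dexamethasone (-1.27). The family thus moved in opposite directions, and Vegfa stayed slightly above Vegfd in level per length after dexamethasone. Vegfb was not called (0.04, 95% interval -0.12 to 0.20), and Vegfc was lower (-0.65, adjusted p = 0.0322), with 1 vehicle library at 5.56 FPKM and the others at 2.82 and 3.54 FPKM; the call was lost without that library (adjusted p = 0.113) and without dexamethasone replicate 1 (0.0873) or 3 (0.0840). Hgf, the ligand of Met that activates satellite cells, fell by 1.18 on the log2 scale, and Nrg1, a ligand of Erbb3, by 1.26. Igfbp4, which sequesters insulin-like growth factors, lay at 31.7, 36.6 and 33.9 FPKM with vehicle and at 6.28, 5.85 and 5.69 FPKM with dexamethasone (-2.50), and Igf2 rose by 0.64 on the log2 scale.

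Of 20 cytokines and chemokines 15 fell and 0 rose, with a median log2 difference of -0.68 against -0.05 over all genes. Under 8 of the alternatives 1 member was called higher. Spp1, osteopontin, was the most abundant, at 1804, 1785 and 1689 FPKM with vehicle and at 610, 647 and 651 FPKM with dexamethasone (-1.47). Csf1, the macrophage growth factor, lay at 45.2, 46.6 and 46.4 FPKM with vehicle and at 18.8, 17.05 and 18.2 FPKM with dexamethasone (-1.35). Ccl2, the monocyte chemokine, lay at 8.31, 6.50 and 6.89 FPKM with vehicle and at 2.63, 3.61 and 2.25 FPKM with dexamethasone (-1.34). Each of these had groups that did not overlap, which the rule for naming genes required and which held for 45.9% of all genes. Cxcl12 (-0.96), Lif (-0.92), Il33 (-0.86) and Clcf1 (-0.83) were lower as well. Il1rn, the secreted antagonist of the interleukin-1 receptor, moved the other way: it lay at 3.82, 5.77 and 7.73 FPKM with vehicle and at 43.2, 32.1 and 59.3 FPKM with dexamethasone (2.95, SE 0.24, adjusted p = 1.93e-06). It was wide among replicates of both groups. Its lowest dexamethasone library was above its highest vehicle library, as the naming rule required.

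TGF-beta and BMP ligands and antagonists included 12 falls and 5 rises among 23 genes. Grem1, a BMP antagonist, lay at 115, 117 and 116 FPKM with vehicle and at 30.6, 32.7 and 31.8 FPKM with dexamethasone (-1.87, SE 0.05), and Bmp4 fell by 1.22 on the log2 scale. Among the other BMP and activin antagonists, Chrd (0.55) and Fst (0.48) were examples that rose. Of the activin subunits, Inhbb rose by 0.77 and Inhba fell by 0.91 on the log2 scale. Semaphorins, ephrins, slits and netrins, the guidance cues, included 13 falls and 2 rises among 23 genes. Sema7a, a membrane-anchored semaphorin, lay at 25.4, 25.6 and 24.0 FPKM with vehicle and at 4.84, 7.65 and 5.77 FPKM with dexamethasone (-2.05), and Slit2, a repulsive cue, at 18.5, 19.7 and 21.2 FPKM with vehicle and at 7.83, 7.15 and 7.74 FPKM with dexamethasone (-1.37).

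Matricellular and microfibril proteins were the most often called list of secreted proteins, with 29 of 35 called, 11 higher and 18 lower, and 14 changed at least 2-fold. Postn, periostin, lay at 45.8, 49.9 and 49.7 FPKM with vehicle and at 212, 214 and 224 FPKM with dexamethasone (2.16). Ccn2, connective tissue growth factor, lay at 27.8, 29.3 and 27.9 FPKM with vehicle and at 101, 112 and 101 FPKM with dexamethasone (1.88). Tnc, tenascin C, lay at 40.5, 41.4 and 42.7 FPKM with vehicle and at 7.83, 7.97 and 6.66 FPKM with dexamethasone (-2.46). The list was therefore not shifted in 1 direction, and related proteins parted: Thbs2 rose by 1.90 while Thbs1 fell by 1.19, and Ccn3 rose by 1.11 while Ccn4 fell by 1.54 on the log2 scale. Fbn1, fibrillin of the microfibrils, fell by 1.81, and Dcn, decorin, by 1.27. These falls stood beside those of the fibroblast marker list, which holds Dcn, and that list's part in them was not tested.

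Among carriers in plasma and lipid handling proteins 10 of 24 rose and 8 fell (4 to 5 fell without dexamethasone replicate 3, vehicle replicate 1 or vehicle replicate 3). The rises include an RNA-editing enzyme that is not secreted and was matched only by the pattern of its symbol. Lpl, lipoprotein lipase, lay at 3.41, 4.11 and 4.17 FPKM with vehicle and at 15.2, 17.4 and 19.2 FPKM with dexamethasone (2.12). Enpp2, the enzyme that makes lysophosphatidic acid, rose by 1.11 and Cp, ceruloplasmin, by 1.07 on the log2 scale, whereas Apol9a (-1.57) and Apol9b (-1.41), which are near-identical copies and so uncertain one by one, fell. Timp3, a metalloprotease inhibitor, lay at 45.1, 55.9 and 53.0 FPKM with vehicle and at 11.6, 10.6 and 12.1 FPKM with dexamethasone (-2.16). Erfe, the muscle-secreted hormone erythroferrone, was outside these lists and among the 12 largest falls, at 10.8, 9.39 and 10.5 FPKM with vehicle and at 2.49, 2.61 and 1.83 FPKM with dexamethasone (-2.11).

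**Figure D2:**
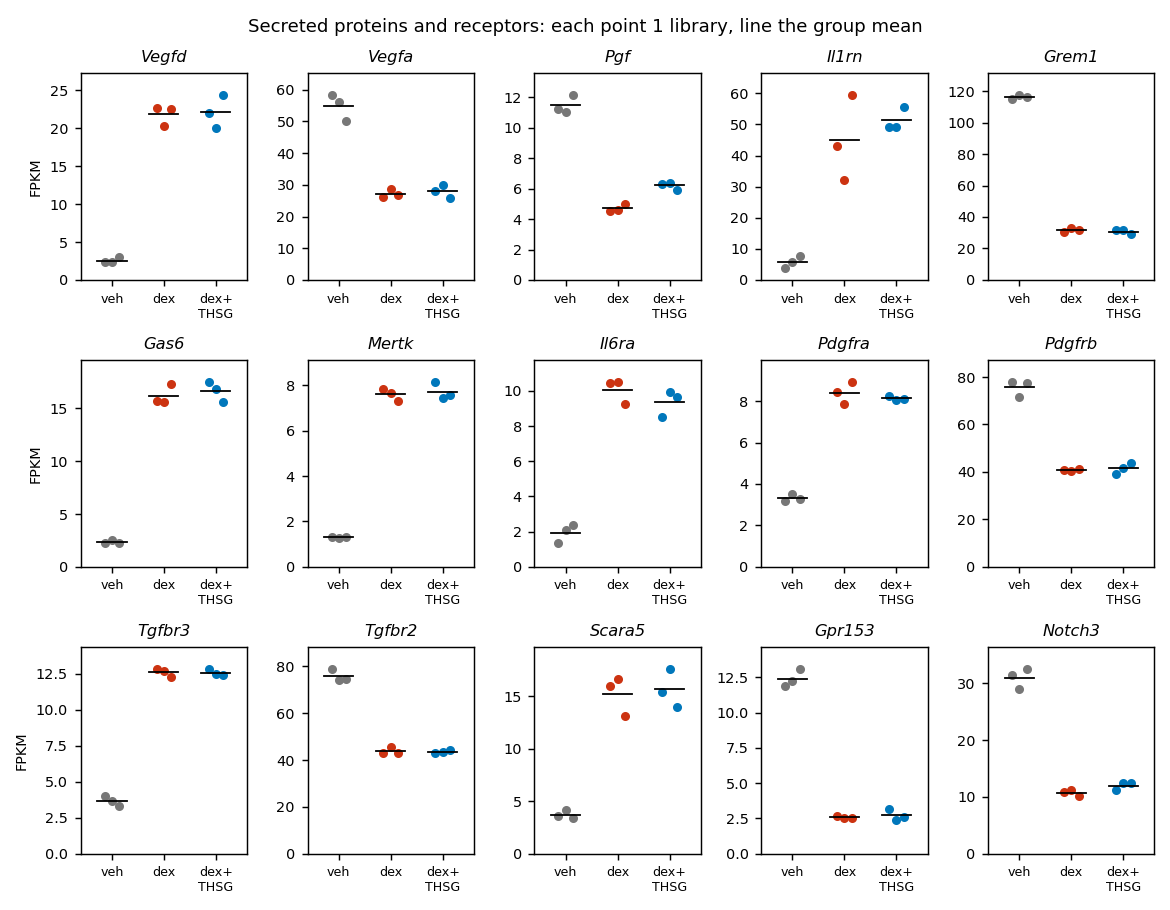
FPKM of 15 secreted proteins and receptors in each of the 9 libraries (points) with the group mean (line), each panel on its own linear axis from 0, for vehicle (veh), dexamethasone (dex) and dexamethasone with THSG (dex+THSG). Vegfd was at 2.33 to 3.00 FPKM with vehicle and at 20.3 to 22.7 FPKM with dexamethasone, while Vegfa and Pgf were lower with dexamethasone.

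Of 27 receptor tyrosine kinases 14 fell and 6 rose. Mertk, the receptor by which cells engulf apoptotic neighbours, lay at 1.32, 1.28 and 1.33 FPKM with vehicle and at 7.85, 7.66 and 7.32 FPKM with dexamethasone (2.45, SE 0.09, adjusted p = 2.48e-09). Its ligand Gas6, a growth factor-like bridging protein, lay at 2.25, 2.57 and 2.26 FPKM with vehicle and at 15.8, 15.6 and 17.3 FPKM with dexamethasone (2.73, SE 0.08, adjusted p = 5.46e-10). Both rose, while the other ligand Pros1 (-0.60) and the other receptors of the family, Tyro3 (-0.89) and Axl (-0.20), were lower. Axl remained the most abundant receptor of this family, at 64.4 to 67.4 FPKM with dexamethasone. The PDGF receptors also parted. Pdgfra lay at 3.17, 3.50 and 3.29 FPKM with vehicle and at 8.44, 7.85 and 8.91 FPKM with dexamethasone (1.31), and Pdgfrb lay at 77.8, 71.4 and 77.6 FPKM with vehicle and at 40.8, 40.4 and 41.4 FPKM with dexamethasone (-0.89). Of the PDGF ligands, Pdgfb (-0.82) and Pdgfa (-0.69) were lower and Pdgfd was barely called higher (0.30), with an adjusted p of 0.0859 without dexamethasone replicate 1, 0.133 without dexamethasone replicate 3, 0.119 without vehicle replicate 2 and 0.0951 without vehicle replicate 3. Epha1, an ephrin receptor, fell by 1.65 and Fgfr4, an FGF receptor of muscle progenitors, by 1.21 on the log2 scale. Insr, the insulin receptor, rose by 0.42.

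The TGF-beta receptors were the smallest list of receptors, with 3 of 8 higher and 2 lower (1 lower after each other scaling and without dexamethasone replicate 2 or 3 or any 1 vehicle replicate). Tgfbr3, the co-receptor betaglycan, lay at 4.02, 3.67 and 3.31 FPKM with vehicle and at 12.8, 12.7 and 12.3 FPKM with dexamethasone (1.76). Tgfbr2, which binds ligand first, lay at 78.9, 74.1 and 74.8 FPKM with vehicle and at 43.2, 45.5 and 43.1 FPKM with dexamethasone (-0.79), and its signalling partner Tgfbr1 rose by 0.76 on the log2 scale. Cytokine, interferon, TNF and Toll-like receptors included 13 falls and 6 rises among 40 genes, a count that includes the antagonist Il1rn. Their shares were 32.5% lower and 15% higher, against 20.9% and 12.7% of all genes. Il6ra, the ligand-binding chain of the interleukin-6 receptor, lay at 1.37, 2.07 and 2.35 FPKM with vehicle and at 10.4, 10.5 and 9.27 FPKM with dexamethasone (2.36, SE 0.16). Il6st, the chain that signals with it, lay at 47.7 to 47.8 FPKM with vehicle and at 48.7 to 53.0 FPKM with dexamethasone and was not called (0.08, 95% interval -0.02 to 0.18). Il1r1 (-0.79), Il4ra (-0.94) and Lifr (-0.81) were lower.

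Lipoprotein, scavenger and endocytic receptors rose in 7 of 23 cases and fell in 10. Vldlr, the very low density lipoprotein receptor, lay at 6.003, 5.75 and 5.05 FPKM with vehicle and at 24.4, 23.6 and 22.6 FPKM with dexamethasone (2.05). Scara5, a ferritin and scavenger receptor, lay at 3.62, 4.15 and 3.43 FPKM with vehicle and at 16.0, 16.7 and 13.1 FPKM with dexamethasone (2.00). Cd36, which takes up fatty acids, rose by 1.11 on the log2 scale. Notch, Hedgehog and guidance receptors included 10 falls and 1 rise among 21 genes. Notch3 lay at 31.5, 29.0 and 32.5 FPKM with vehicle and at 10.9, 11.1 and 10.1 FPKM with dexamethasone (-1.52), and Dll1, a Notch ligand that the list holds, fell by 0.81 on the log2 scale, beside the fall of Hes1.

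G protein-coupled receptors were called in 35 of 59 cases, 16 higher and 19 lower. Gpr153, an orphan receptor, lay at 11.9, 12.2 and 13.1 FPKM with vehicle and at 2.68, 2.53 and 2.50 FPKM with dexamethasone (-2.22). Cnr1, a cannabinoid receptor, rose by 1.09 and Gpr155 by 1.10 on the log2 scale. Ednra, the endothelin receptor, fell by 1.38, Cmklr1, the chemerin receptor, by 1.18, and Cxcr4, the receptor of Cxcl12, by 0.74.

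**Figure D3:**
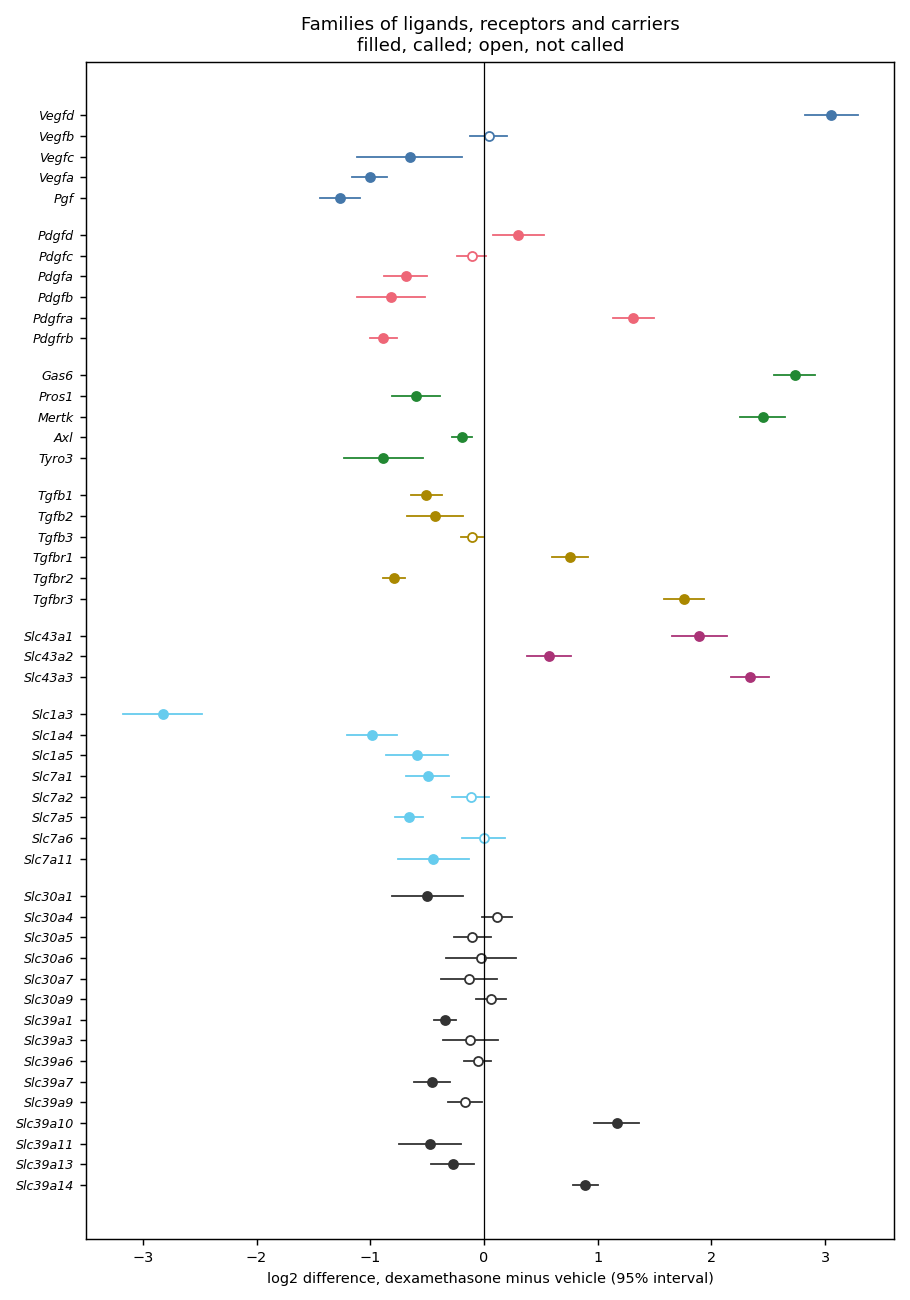
Log2 difference of dexamethasone minus vehicle (point) with its 95% interval (line) for members of ligand, receptor and carrier families in the table, filled where called and open where not. Vegfd, Gas6, Mertk, Pdgfra and Tgfbr3 lie above 0 while most relatives lie below it, and the 3 Slc43 carriers all lie above 0.

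Transporters and channels were called at a share (40.6%) not far from that of all genes (33.6%), with a few large changes. Amino acid and peptide carriers rose in 7 of 27 cases and fell in 9. All 3 Slc43 carriers of the table rose, against 12.7% of all genes. Slc43a3, a carrier of purine bases, lay at 3.91, 4.33 and 4.19 FPKM with vehicle and at 22.01, 22.3 and 19.8 FPKM with dexamethasone (2.34, SE 0.08, adjusted p = 1.07e-09). Slc43a1, a carrier of large neutral amino acids, lay at 2.42, 1.87 and 1.89 FPKM with vehicle and at 8.40, 7.48 and 7.82 FPKM with dexamethasone (1.89), and its relative Slc43a2 rose by 0.57 on the log2 scale. The carriers of the Slc1 and Slc7 families did not follow, with 6 of 8 lower and 0 higher, against 20.9% and 12.7% of all genes. Slc1a3, a glutamate carrier, had the largest fall among all genes the naming rule could take, from 8.03, 8.53 and 10.6 FPKM with vehicle to 1.39, 1.09 and 1.08 FPKM with dexamethasone (-2.83, SE 0.16). It came close to the 1 FPKM above which genes were kept. Slc1a4 (-0.98), Slc7a5 (-0.66), Slc1a5 (-0.59) and Slc7a1 (-0.49) were lower. Slc7a11, the cystine carrier, was the weakest of the 6 (-0.45) and lost its call after median-ratio scaling, after quantile normalization and without dexamethasone replicate 2 or 3 or any 1 vehicle replicate (adjusted p of 0.0527 to 0.114).

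Sugar, monocarboxylate and nucleoside carriers were called in 7 of 15 cases. Slc5a3, the sodium-coupled carrier of myo-inositol, lay at 10.0, 8.77 and 11.7 FPKM with vehicle and at 29.0, 24.1 and 27.4 FPKM with dexamethasone (1.40). The lactate carriers Slc16a3 (-1.09) and Slc16a1 (-0.54) were lower, and the glucose carrier Slc2a1 was not called (0.05, 95% interval -0.10 to 0.19). Among 28 metal carriers 4 rose (14.3%) and 9 fell (32.1%), against 12.7% and 20.9% of all genes. Within the zinc families, Slc39a10, an importer, lay at 3.92, 3.98 and 4.41 FPKM with vehicle and at 8.34, 9.76 and 9.94 FPKM with dexamethasone (1.17), and Slc39a14 lay at 17.5, 17.9 and 18.6 FPKM with vehicle and at 34.2, 32.9 and 33.3 FPKM with dexamethasone (0.89). These were the 2 called higher among 15 Slc30 and Slc39 carriers, a share near the 12.7% of all genes. Another 5 were lower, against 20.9% of all genes. Among the 5 was the exporter Slc30a1 (-0.50), whose call was lost without dexamethasone replicate 2 (adjusted p = 0.0557) or vehicle replicate 1 (0.0652). Slc39a13 (-0.27) was also among them, and it lost its call after median-ratio scaling and without the intensity trend. Its call was lost as well without dexamethasone replicate 1 or 3 or vehicle replicate 1 or 2 (adjusted p of 0.0561 to 0.107 in these settings). Slc40a1, the iron exporter ferroportin, fell by 0.77. Slc20a1, a phosphate carrier, lay at 31.3, 29.9 and 29.1 FPKM with vehicle and at 13.6, 13.9 and 14.1 FPKM with dexamethasone (-1.11).

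Of 28 chloride channels, aquaporins and connexins 7 rose and 10 fell (60.7% called), and of 22 P-type ATPases and their regulators 7 rose and 6 fell (59.1%), against 33.6% of all genes. Best1, an anion channel, lay at 2.91, 2.71 and 2.10 FPKM with vehicle and at 9.76, 8.16 and 9.75 FPKM with dexamethasone (1.81). Piezo2, a mechanically gated channel, lay at 6.72, 6.66 and 6.49 FPKM with vehicle and at 1.47, 1.54 and 1.42 FPKM with dexamethasone (-2.09). Gja1, connexin 43, lay at 20.3, 18.2 and 17.5 FPKM with vehicle and at 5.04, 7.22 and 5.26 FPKM with dexamethasone (-1.68), and the other connexins Gja5 (-1.08) and Gjc1 (-0.83) and the water channel Aqp1 (-1.14) were lower too. Atp1b1, a beta subunit of the sodium pump, rose by 0.98 and Fxyd5, a regulator of that pump, fell by 2.03 on the log2 scale. Calcium, sodium and other cation channels rose in 10 of 37 cases and fell in 6, and those that rose include the voltage sensor Cacna1s (0.33), the release channels Ryr1 (0.23) and Ryr3 (0.82) and the muscle sodium channel Scn4a (0.33), beside 11 of 18 myotube markers that rose. Mitochondrial carriers were called in 10 of 38 cases (26.3%) and ABC transporters in 7 of 25 (28%), against 33.6% of all genes.

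**Figure D4:**
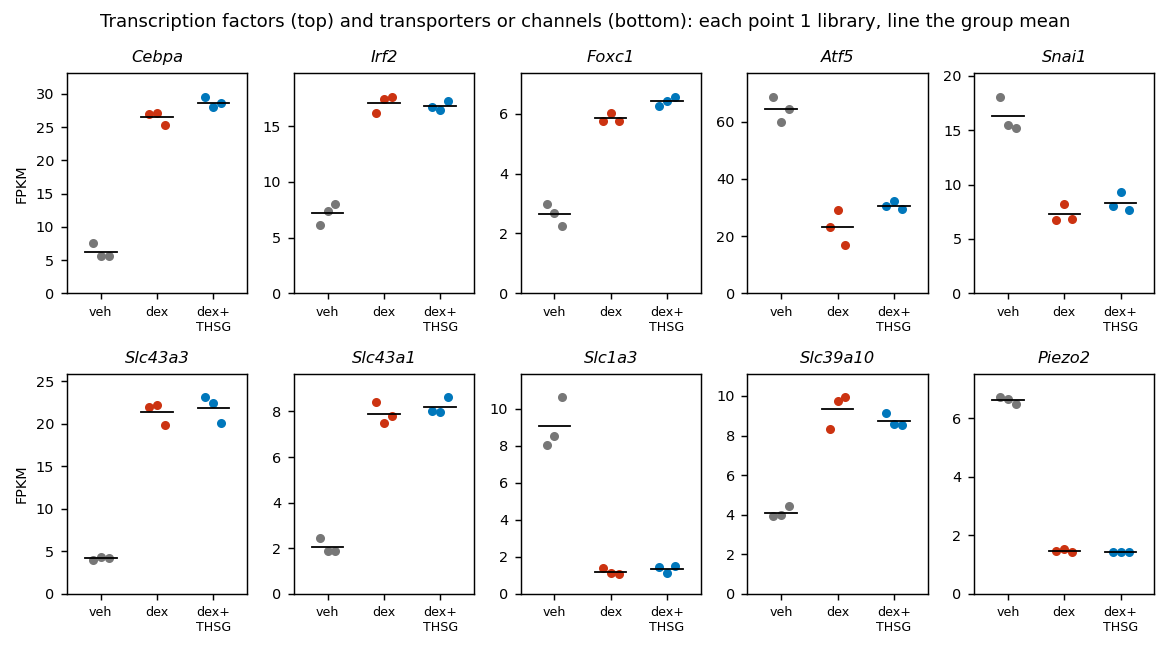
FPKM of 5 transcription factors (top) and 5 transporters or channels (bottom) in each of the 9 libraries (points) with the group mean (line), each panel on its own linear axis from 0. Slc43a3 was at 3.91 to 4.33 FPKM with vehicle and at 19.8 to 22.3 FPKM with dexamethasone, and Slc1a3 and Piezo2 were below 2 FPKM with dexamethasone.

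Signalling regulators of mTOR, insulin and PI3-kinase rose in 13 of 32 cases and fell in 7 (4 fell without dexamethasone replicate 3 or vehicle replicate 1). Besides Sgk1, the rises included Sesn1, an inhibitor of mTORC1, at 18.1, 19.1 and 20.1 FPKM with vehicle and 47.1, 49.9 and 51.7 FPKM with dexamethasone (1.37). Deptor, a component that inhibits mTOR, lay at 41.2, 43.9 and 42.5 FPKM with vehicle and at 95.4, 93.7 and 102 FPKM with dexamethasone (1.19), and Pik3ip1, an inhibitor of PI3-kinase, rose by 1.26 on the log2 scale. Sesn3 (-1.06) and Sesn2 (-0.54) moved against Sesn1. The insulin receptor substrates parted, with Irs2 higher (0.81) and Irs1 lower (-0.78). Among feedback regulators of MAP kinases 8 of 33 rose (24.2%) and 7 fell (21.2%), against 12.7% and 20.9% of all genes. Errfi1, an inhibitor of EGF receptors, rose by 1.35 and Dusp1, a phosphatase of MAP kinases, by 0.87 on the log2 scale, while Dusp4 (-0.84) and Dusp6 (-0.42) fell. The pseudokinases split as well: Trib1 lay at 2.14, 1.90 and 2.04 FPKM with vehicle and at 5.22, 6.47 and 4.27 FPKM with dexamethasone (1.33), and Trib3 at 6.32, 6.67 and 7.23 FPKM with vehicle and at 1.88, 1.68 and 1.79 FPKM with dexamethasone (-1.86). Socs3, the feedback inhibitor of interleukin-6 type receptors, lay at 15.8, 14.5 and 15.6 FPKM with vehicle and at 7.75, 7.82 and 6.96 FPKM with dexamethasone (-1.02).

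**Figure D5:**
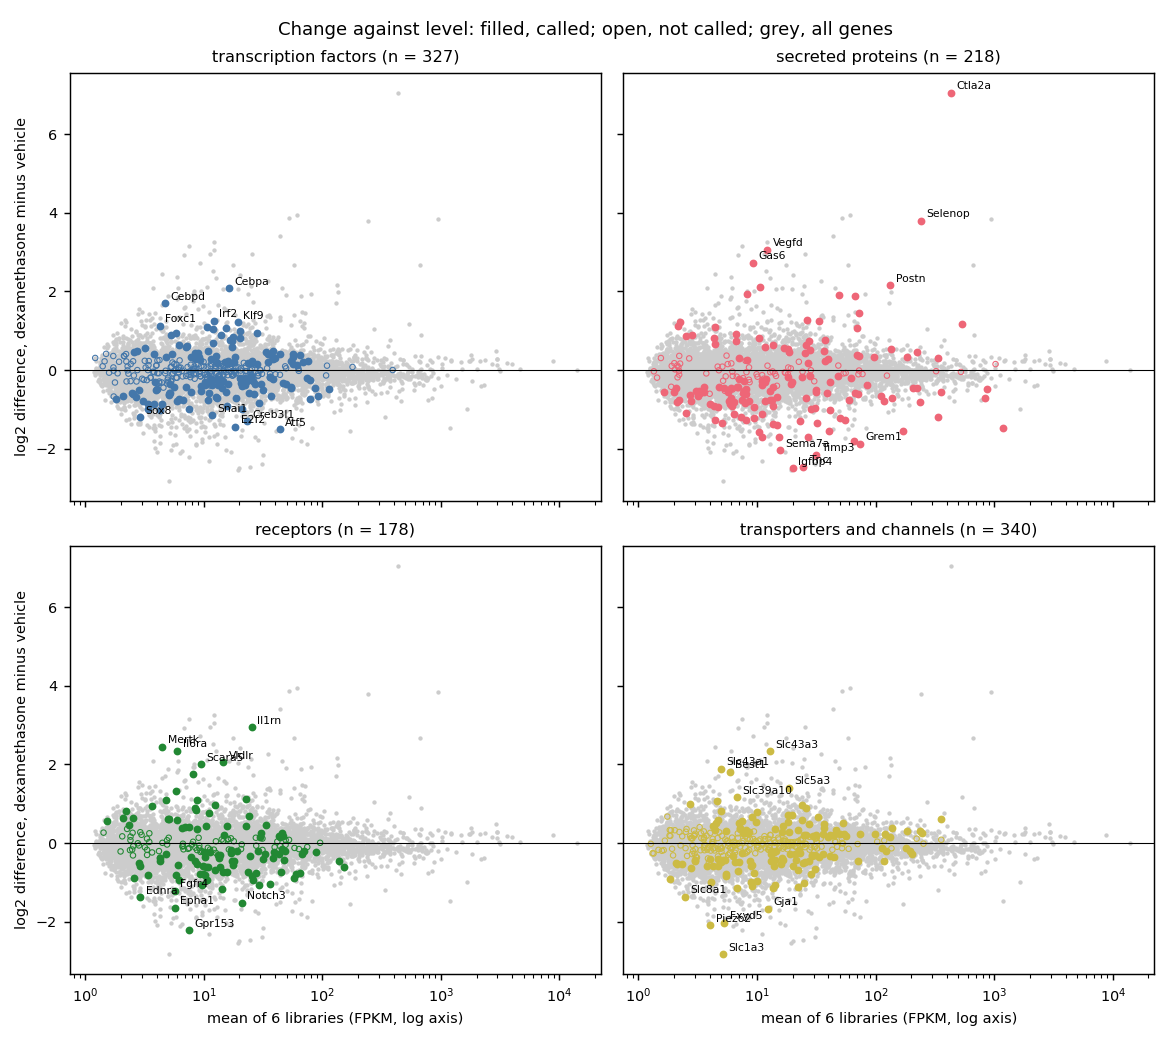
Log2 difference of dexamethasone minus vehicle against the mean of the 6 libraries (FPKM, log axis) for transcription factors, secreted proteins, receptors, and transporters and channels, with all genes in grey, called members filled, other members open, and the 5 largest rises and falls of each class named (Il1rn, a secreted antagonist, is plotted with receptors). Secreted proteins reach from -2.50 (Igfbp4) to 7.06 (Ctla2a), while transcription factors stay between -1.51 (Atf5) and 2.08 (Cebpa).

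The myotubes given dexamethasone with THSG had also received the glucocorticoid, and their comparison with vehicle shares the vehicle libraries. In them Vegfd lay at 22.1, 20.1 and 24.3 FPKM, Mertk at 8.13, 7.43 and 7.57 FPKM, and Slc43a3 at 23.1, 22.5 and 20.1 FPKM. Grem1 lay at 31.5, 31.5 and 29.1 FPKM, Slc1a3 at 1.47, 1.14 and 1.48 FPKM, and Notch3 at 11.2, 12.4 and 12.4 FPKM. For each of these genes the libraries with THSG lay on the same side of all vehicle libraries as those with dexamethasone alone. Cebpd lay at 10.1, 9.17 and 9.55 FPKM with THSG, above the 6.30 to 7.75 FPKM of dexamethasone alone, and Atf5 at 30.3, 32.3 and 29.3 FPKM, above the 16.9 to 29.1 FPKM, differences that were not tested here.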

How the data were processed

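Per the labels' protocols, a Hybrid-R kit served for RNA extraction and a TruSeq kit for stranded mRNA libraries. STAR 2.7.10a, featureCounts and the build GRCm39 are named in the submitters' processing notes. The values that the authors deposited are fractional and all exceed 1, so they were taken to be FPKM; no header or label states the unit, the transcript lengths, the strand setting or the filter, and the depth of the libraries is unknown. Titles all name C2C12, whereas the number in the cell line field goes up by 1 with each sample; titles were used.

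Genes kept the symbol of the table, except 52 human-style symbols that were replaced through GENCODE (GRCm38), which matched 10670 of 10716 identifiers. The log2(FPKM + 0.1) values of all 9 libraries were fitted with limma 3.58.1 in R 4.3.3, with 1 mean per group and an intensity trend. The contrast of dexamethasone and vehicle had a two-sided test, p-values were adjusted by Benjamini and Hochberg across all 10716 genes, a gene was called at an adjusted p under 0.05, and fold changes understate those of low genes. A count test needs counts and was not used. The script was tested on simulated data. Differences given without a unit are on this log2 scale, dexamethasone minus vehicle, intervals are 95% intervals, and list counts use the calls over all genes.

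The comparison and the 50 lists, matched by symbol or symbol pattern, were chosen with earlier results of these data known. Named genes were called genes with groups that did not overlap and a mean of at least 3 FPKM (the 12 largest rises and falls, and up to 4 per list by size), a fixed set of glucocorticoid genes, and the most abundant uncalled member of each list. Another 61 genes in the text, mostly relatives of these, and the families plotted together were chosen after their values were seen, and some genes the rule or lists give are not reported here. The settings varied were the pseudocount, scaling, a filter, the trend, the libraries fitted, a replicate block and leaving out each library.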

Additional observations from a re-analysis of the deposited data

How the results depend on the processing

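Under the 18 alternative settings the number of genes called higher ran from 1130 to 1784 and the number called lower from 1751 to 2254, against 1362 and 2239. The class counts stayed within 1.5 times of their values under each alternative: secreted proteins had 41 to 51 higher and 85 to 107 lower members, receptors 32 to 42 and 58 to 72, transcription factors 50 to 74 and 65 to 86, transporters and channels 54 to 79 and 59 to 81, and signalling regulators 25 to 36 and 19 to 27. Leaving out 1 library gave 1130 to 1341 genes higher and 1769 to 2242 lower. Some members had been matched by the pattern of their symbol while their product is of another kind; without these, an alternative chosen after seeing the data, 71.0% of 200 secreted proteins, 59.9% of 177 receptors, 41.6% of 320 transporters and channels and 50.0% of 106 signalling regulators were called. With the replicate number as a block, 1306 genes were higher and 2212 lower. No pairing by number was seen. The deviations of same-numbered vehicle and dexamethasone libraries correlated at 0.107, -0.017 and 0.066, and only 1 dexamethasone library correlated best with its own number. So few libraries cannot show whether those of the same number shared a culture or batch.

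Of 1800 counts recomputed for single lists, 93 were over 1.5 times away, most of them counts of 5 or fewer, and a minimum mean of 5 FPKM lowers counts by leaving fewer members. Of 165 called genes named in the text, 160 kept their call under each alternative; Pdgfd, Slc30a1, Slc39a13, Slc7a11 and Vegfc did not, and the block took the call from Pdgfd among them (adjusted p = 0.0568). None of the 171 named genes changed direction while called. Because a gene had to exceed 1 FPKM in every library, changes that begin or end below that level are not seen, and the median half-width of the 95% intervals was 0.18 on the log2 scale.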
